A study of Mus musculus with 23 samples.

Results

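Paneth cell defensins and secreted antimicrobials were followed in small intestine RNA as the set of listed genes whose mouse symbol begins with Defa, the alpha-defensins (cryptdins), together with Lyz1, Mmp7, Ang4 and Itln1. They were taken from the NCBI Gene numbers of the expression table and came to 32 of 19215 entries, 28 alpha-defensins and 4 others. Pla2g2a, also on the list, was not analysed here. The 28 alpha-defensins lie together on chromosome 8 (mouse build GRCm38, between positions 21025545 and 21735471), and Lyz1, Mmp7, Ang4 and Itln1 lie on chromosomes 10, 9, 14 and 1.

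All recipients were male ICR mice, an outbred stock, that received busulfan, an alkylating chemotherapy drug that damages the gut lining, once at 40 mg/kg when 3 weeks old. From the next day they were gavaged daily for 1 week with saline (Sa) or with the pooled gut contents of donor mice, a fecal microbiota transplant (FMT), and then kept for 1 more week to 5 weeks of age. Donors were ICR males dosed for 3 weeks with water (Con-FMT), with alginate oligosaccharides at 10 mg/kg (A10-FMT) or with alginate oligosaccharides at 100 mg/kg (A100-FMT), and no group without busulfan was analysed here. The 23 libraries fall into these 4 treatments in set 1 and in set 2, a division taken from a code in the sample names whose meaning is not given, nor whether both sets followed that schedule. Each of the 8 groups has 3 libraries apart from Sa of set 1 with 2, named replicates 1 and 3. The labels do not say that each library is a separate mouse, so the p-values measure the spread between these libraries.

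Paneth cells sit at the base of the small intestinal crypts, between the stem cells, and release granules of antimicrobial proteins into the crypt lumen. Alpha-defensins are small cationic peptides that disrupt bacterial membranes; in the mouse they are made as precursors that the metalloproteinase matrilysin, the product of Mmp7, cuts into the active form. Lysozyme, from Lyz1, cleaves the peptidoglycan of bacterial walls, angiogenin 4, from Ang4, is a bactericidal ribonuclease family protein, and intelectin 1, from Itln1, is a lectin that binds microbial sugars. The alpha-defensin genes are a cluster of closely related copies.

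Values were FPKM, fragments mapped to a gene scaled by its length and by the fragments mapped in the library. The FPKM total of a library ran from 556466 to 667957, and sequencing depth is not known. The library numbered 3 of Sa set 1 stood apart. Its correlation with the other libraries over genes was 0.944 to 0.965, against 0.968 to 0.991 for pairs of the others, and its FPKM total was the highest, 667957. Its description names another column than its title, so that column was tried as an alternative. The description's column did not stand apart, with a correlation of 0.973 to 0.989 with the other libraries and a total of 597009 FPKM. Which column is right is not known. A gene was tested where it averaged 1 FPKM or more, which 11337 entries and 30 of the 32 genes passed. Defa43 and Defa25 did not pass, with at most 6.23 and 1.81 FPKM in any library. A call is an adjusted p under 0.05 in the limma fit over all tested genes, and a log2 change is on the scale log2(FPKM + 1), with the second group named over the first.

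Both markers of Paneth cells were present in every library. Lyz1 ran from 1128 to 4697 FPKM with a median of 2556, and Mmp7 from 63.9 to 217 FPKM with a median of 145. Summed over the 28 genes, the alpha-defensins gave 12050 to 41226 FPKM, which is 2.12% to 6.96% of the FPKM total of a library. In whole tissue RNA, fewer Paneth cells and less RNA per Paneth cell cannot be told apart.

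The copies share much of their sequence, which is shown here because it sets how far single copies can be read. Of the 50-base words of a copy's annotated transcript, a median of 79.5% also occurred in another of the 28 copies, with a range of 28.1% to 100%, and 23 of the 28 shared at least 50% of their words. No 50-base word of Lyz1, Mmp7, Ang4 or Itln1 occurred in another of the 32 genes. How the counting divided fragments between copies is not stated, so the level of a single copy is uncertain and family sums are given beside them. The upstream sequences of the most abundant copy, Defa31, and of Defa21, Defa2 and Defa42, whose levels are described below, come from RefSeq on build GRCm38.p6, which is the sequence of a C57BL/6J mouse. Each is the 250 bases before the annotated start of the gene, 5′ to 3′ on the gene's own strand, with the letters TATAAA and TCAAAG in capitals. They lie at chr8:21191323-21191572, chr8:21025295-21025544 and chr8:21378267-21378516 on the plus strand and at chr8:21456518-21456767 on the minus strand.
Defa31: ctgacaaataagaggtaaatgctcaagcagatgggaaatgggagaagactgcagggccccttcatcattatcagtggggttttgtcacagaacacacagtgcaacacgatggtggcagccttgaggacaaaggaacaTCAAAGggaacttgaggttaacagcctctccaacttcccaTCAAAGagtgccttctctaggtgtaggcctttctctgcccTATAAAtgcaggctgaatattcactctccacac
Defa21: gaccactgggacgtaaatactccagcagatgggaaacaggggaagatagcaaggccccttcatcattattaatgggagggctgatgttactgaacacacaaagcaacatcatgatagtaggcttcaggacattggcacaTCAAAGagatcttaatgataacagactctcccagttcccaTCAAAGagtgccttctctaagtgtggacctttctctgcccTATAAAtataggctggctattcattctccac
Defa2: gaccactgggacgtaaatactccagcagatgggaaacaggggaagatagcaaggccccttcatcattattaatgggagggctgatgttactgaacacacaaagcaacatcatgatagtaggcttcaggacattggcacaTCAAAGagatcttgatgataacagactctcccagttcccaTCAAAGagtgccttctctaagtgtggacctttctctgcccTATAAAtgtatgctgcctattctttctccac
Defa42: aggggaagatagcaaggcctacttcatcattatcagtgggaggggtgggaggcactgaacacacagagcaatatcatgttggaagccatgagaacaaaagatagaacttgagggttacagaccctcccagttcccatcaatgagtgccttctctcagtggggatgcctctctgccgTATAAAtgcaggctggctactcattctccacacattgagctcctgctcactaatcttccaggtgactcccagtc

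TATAAA is the core of a TATA box, and TCAAAG is the core letter string bound by TCF factors of the Wnt pathway. In Defa31 the TATAAA begins 33 bases before the start and TCAAAG begins at 113 and 73 bases before it, and in Defa21 and in Defa2 they begin at 31, 111 and 71 bases. Defa42 has TATAAA at 74 bases and no TCAAAG in these letters. Over windows of 250 bases before to 50 after the start, searched on both strands, TATAAA occurred in 15 of the 16 alpha-defensins with a RefSeq window (93.8%) and in 13.6% of all 32851 windows, and TCAAAG in 13 of 16 (81.2%) and in 16.0% of all windows. An occurrence of one string cannot share bases with one of the other on either strand. The window of Defa2 was identical to that of Defa20 (100%), and that of Defa21 to that of Defa22 (100%). Defa2 and Defa31 were 82.0% identical, Defa42 and Defa38 97.3%, and Defa2 and Defa42 70.3%. A match of letters is a description and not a binding site.

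Among the alpha-defensins Defa31 was the most abundant, with a median of 7552 FPKM and a range of 3681 to 12252, followed by Defa24 with a median of 4865 and a range of 2671 to 7911, and Defa17 with a median of 3003 and a range of 1764 to 5111. Defa29, Defa35 and Defa37 had medians of 1144, 829 and 786 FPKM, beside 816 for Itln1 and 719 for Ang4. Defa5, Defa39 and Defa30 had medians of 832, 560 and 496 FPKM. The lowest value of these 9 copies in any library was 201 FPKM, for Defa30. At the other end, Defa27, Defa41, Defa28, Defa43 and Defa25 never passed 18.8 FPKM.

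**Figure D1:**
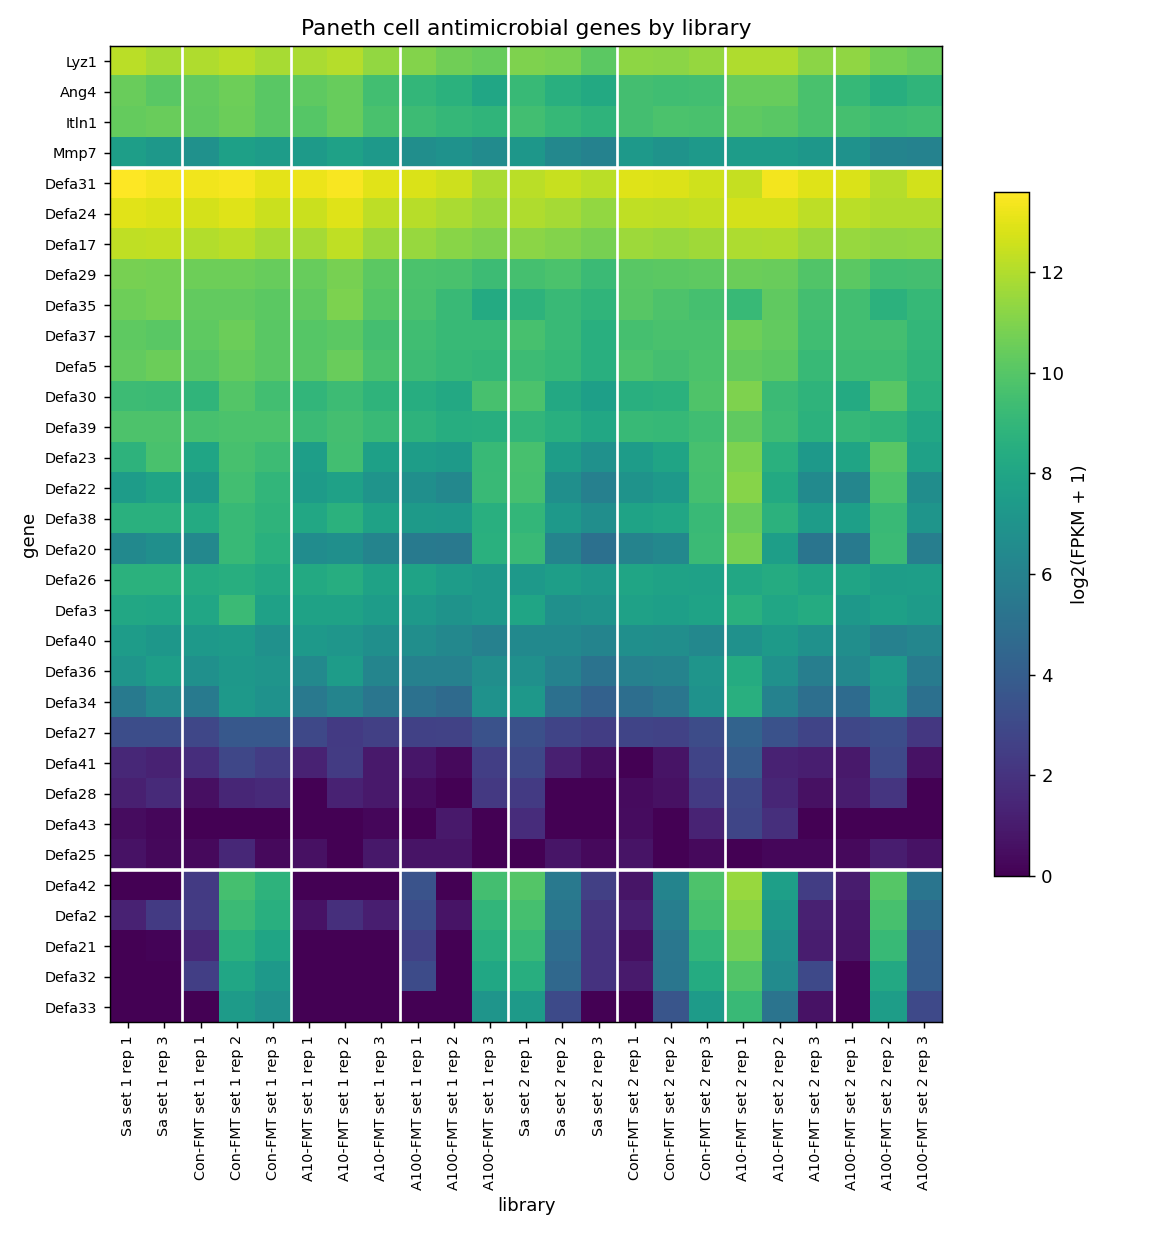
Level of the 32 genes, as log2(FPKM + 1) by colour, in each of the 23 libraries (columns, with white lines between the 8 groups). Lyz1, Ang4, Itln1 and Mmp7 are on top, the 23 remaining alpha-defensins in the middle, ordered by mean level, and at the bottom Defa42, Defa2, Defa21, Defa32 and Defa33, which are under 10 FPKM in 12 to 14 libraries and reach 596 to 2872 FPKM in others.

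The question the design poses is whether the transplants, and the donors' treatment, changed the intestine of busulfan-treated mice relative to saline. In set 1, many of the 32 genes were lower in A100-FMT than in Sa. Lyz1, Itln1 and Ang4 fell, and so did the 6 most abundant alpha-defensins. Of the 30 genes tested, 14 were called and all 14 were lower, where 13.1% of all tested genes were called lower and 22% higher. The median log2 change of the 30 was -0.91, and 5 of the 30 were above 0, against a median of 0.05 over all tested genes.

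Lyz1 was at 4598 and 3578 FPKM in the Sa libraries of set 1 and at 2163, 1610 and 1391 FPKM in the A100-FMT libraries. All A100-FMT libraries were below both Sa libraries, a log2 change of -1.26 ± 0.29 (SE, adjusted p = 0.0083). Ang4 was at 1403 and 1116 FPKM in Sa and at 512, 406 and 257 FPKM in A100-FMT. It had the largest change among the 14 called genes, at -1.73 ± 0.31 (adjusted p = 0.0037). Itln1 was at 1319 and 1446 FPKM in Sa and at 629, 524 and 478 FPKM in A100-FMT, again without overlap, a change of -1.35 ± 0.21 (adjusted p = 0.0021). Mmp7, the processing enzyme, was at 193 and 150 FPKM in Sa and at 103, 119 and 93.1 FPKM in A100-FMT. These did not overlap either, but at -0.70 ± 0.31 Mmp7 was not called (adjusted p = 0.080).

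Among the alpha-defensins, Defa31 was at 12252 and 10506 FPKM in the Sa libraries of set 1 and at 7063, 5890 and 3681 FPKM in A100-FMT (-1.08 ± 0.28, adjusted p = 0.012). Defa24 was at 7911 and 7194 FPKM in Sa and at 4520, 3640 and 3026 FPKM in A100-FMT (-1.04 ± 0.20, adjusted p = 0.0052). Both were lower in every A100-FMT library. The called alpha-defensin that changed most was Defa35, at 1532 and 1710 FPKM in Sa and 829, 584 and 318 FPKM in A100-FMT (-1.59 ± 0.35, adjusted p = 0.0071). Defa5 (-1.28), Defa39 (-1.22), Defa29 (-1.20), Defa26 (-1.11), Defa17 (-1.10), Defa40 (-0.99), Defa37 (-0.91) and Defa3 (-0.91) were also called. Of the 15 alpha-defensins tested and not called, 5 had log2 changes above 0, and these were Defa42, Defa2, Defa21, Defa32 and Defa33, at 0 to 4.01 FPKM in both Sa libraries. Summed over the family, 34576 and 32980 FPKM in Sa stood against 19360, 15906 and 16436 FPKM in A100-FMT, a log2 change of -0.98.

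Without overlap between the groups, 17 of the 30 were lower in A100-FMT and 0 higher, against 17.9% and 22% of all tested genes. The calls rest on Sa of set 1, which has 2 libraries. Without the library numbered 3, 0 genes were called, 15 were at an unadjusted p under 0.05, and 27 genes in the whole table were called in place of 3987. With the 2 groups fitted alone 0 of the 30 were called (16 at an unadjusted p under 0.05), and with array quality weights 0 (1 at an unadjusted p under 0.05). Those weights were 0.0859 for each of the 2 Sa libraries of set 1 and at least 0.809 for every other library. That fit therefore gave little weight to the whole Sa group of set 1, and not only to the library numbered 3. With the column that the description names, 12 were called. The share of all tested genes called is not given for the fit of 2 groups alone, the weights or this column. Nor is it given for the alternative fits and the fits without single libraries described below. Those counts show how the calls moved and are not results about the 30 genes alone. In each of the 15 fits run, the log2 change stayed negative for the 14 called genes and Mmp7.

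**Figure D2:**
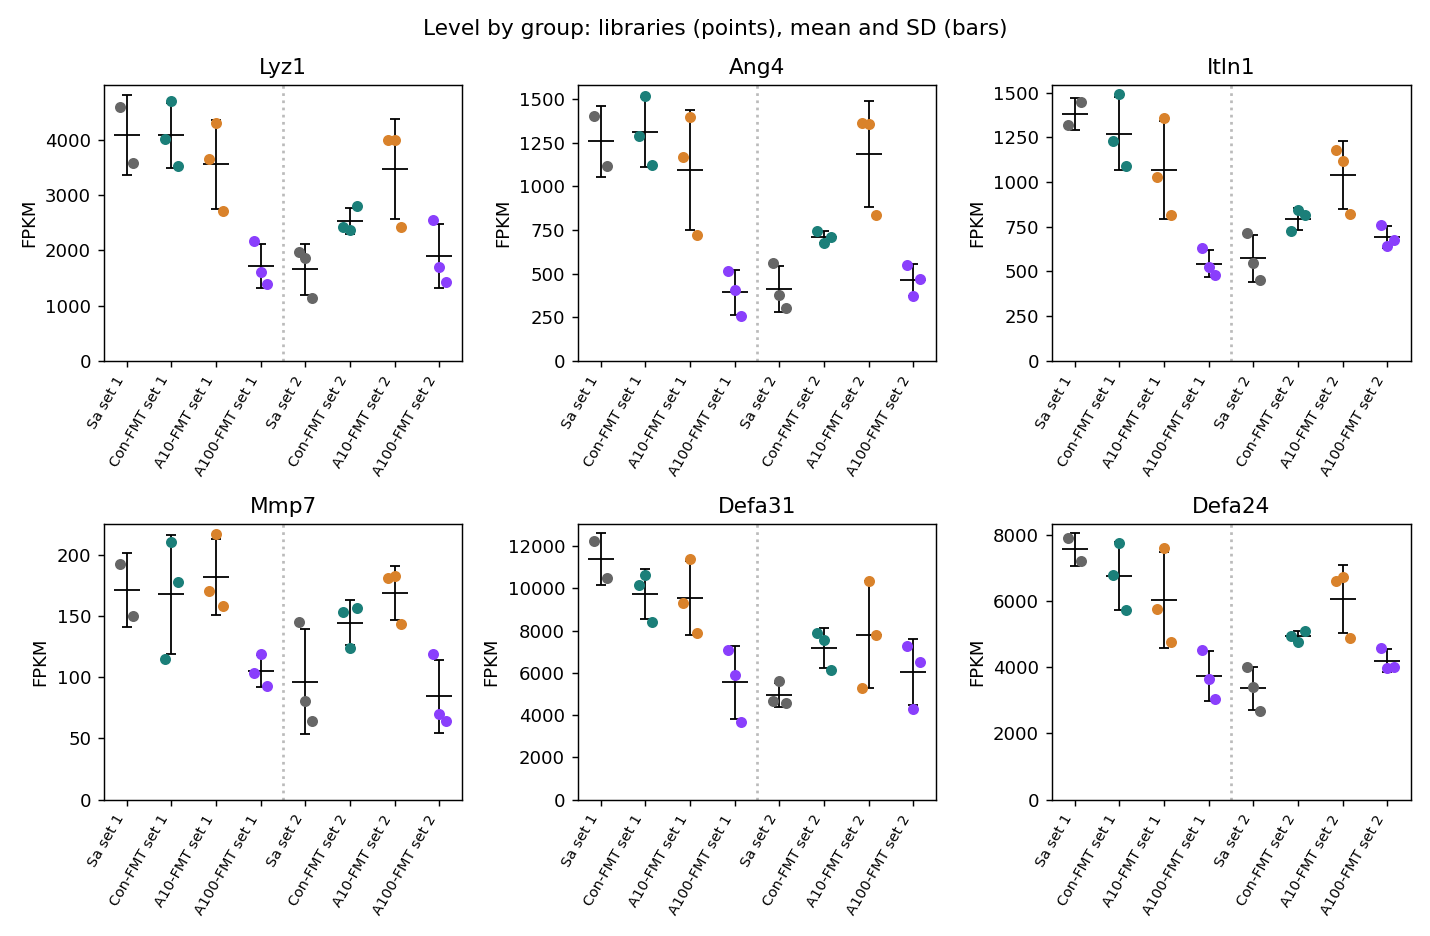
FPKM of Lyz1, Ang4, Itln1, Mmp7, Defa31 and Defa24 in the 8 groups, each library as a point with the group mean and SD, and a dotted line between set 1 and set 2. In set 1 the A100-FMT libraries of all 6 genes are below the Sa libraries, and among the groups of set 2 Sa has the lowest mean for each but Mmp7.

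A100-FMT in set 1 was also compared with Con-FMT, the transplant from donors given water. Here 7 of 30 genes were called and all 7 were lower, where 0.212% of all tested genes were called lower and 0.194% higher. The 7 were Lyz1, Itln1, Ang4, Defa24, Defa17, Defa29 and Defa26, and all 30 had a log2 change below 0, with a median of -1.06 against 0.00 over all tested genes. Lyz1 was at 4009, 4697 and 3531 FPKM in the Con-FMT libraries of set 1 (-1.26 ± 0.26, adjusted p = 0.041). Ang4 was at 1290, 1518 and 1120 FPKM (-1.78 ± 0.28, adjusted p = 0.0085) and Itln1 at 1232, 1491 and 1092 FPKM (-1.22 ± 0.19, adjusted p = 0.0080). Every A100-FMT library was below every Con-FMT library for these 3. Defa24 was at 6788, 7744 and 5714 FPKM in Con-FMT (-0.86 ± 0.18, adjusted p = 0.046). Defa31 was at 10175, 10634 and 8401 FPKM (-0.86 ± 0.25) and was not called (adjusted p = 0.18).

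The groups did not overlap, with A100-FMT lower, for 15 of 30 genes, against 10.2% of all tested genes. The number of calls moved with single libraries. It was 2 without Con-FMT replicate 1 and 0 without Con-FMT replicate 2, A100-FMT replicate 2 or A100-FMT replicate 3 (14 to 16 were at an unadjusted p under 0.05 in these 4 fits). It was 7 without Con-FMT replicate 3 and 6 without A100-FMT replicate 1. The family sum fell by 0.86 on the log2 scale. This comparison and the one with Sa share the A100-FMT libraries.

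Con-FMT and A10-FMT in set 1 were compared with Sa in the same way. For Con-FMT, 0 of 30 genes were called with limma (2 at an unadjusted p under 0.05), where 26.9% of all tested genes were called. Lyz1 had a log2 change of 0.00 ± 0.29 and Ang4 of 0.05 ± 0.31. For A10-FMT, 0 of 30 were called (2 at an unadjusted p under 0.05), where 32% of all tested genes were called. Defa26 came nearest to a call (-0.50, adjusted p = 0.0501), followed by Defa17 (-0.44 ± 0.19, adjusted p = 0.080) and Itln1 (-0.40 ± 0.21, adjusted p = 0.14). Without A10-FMT replicate 2, 3 genes were called. Between Con-FMT and A10-FMT in set 1, 0 were called (5 at an unadjusted p under 0.05), where 16.7% of all tested genes were called.

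**Figure D3:**
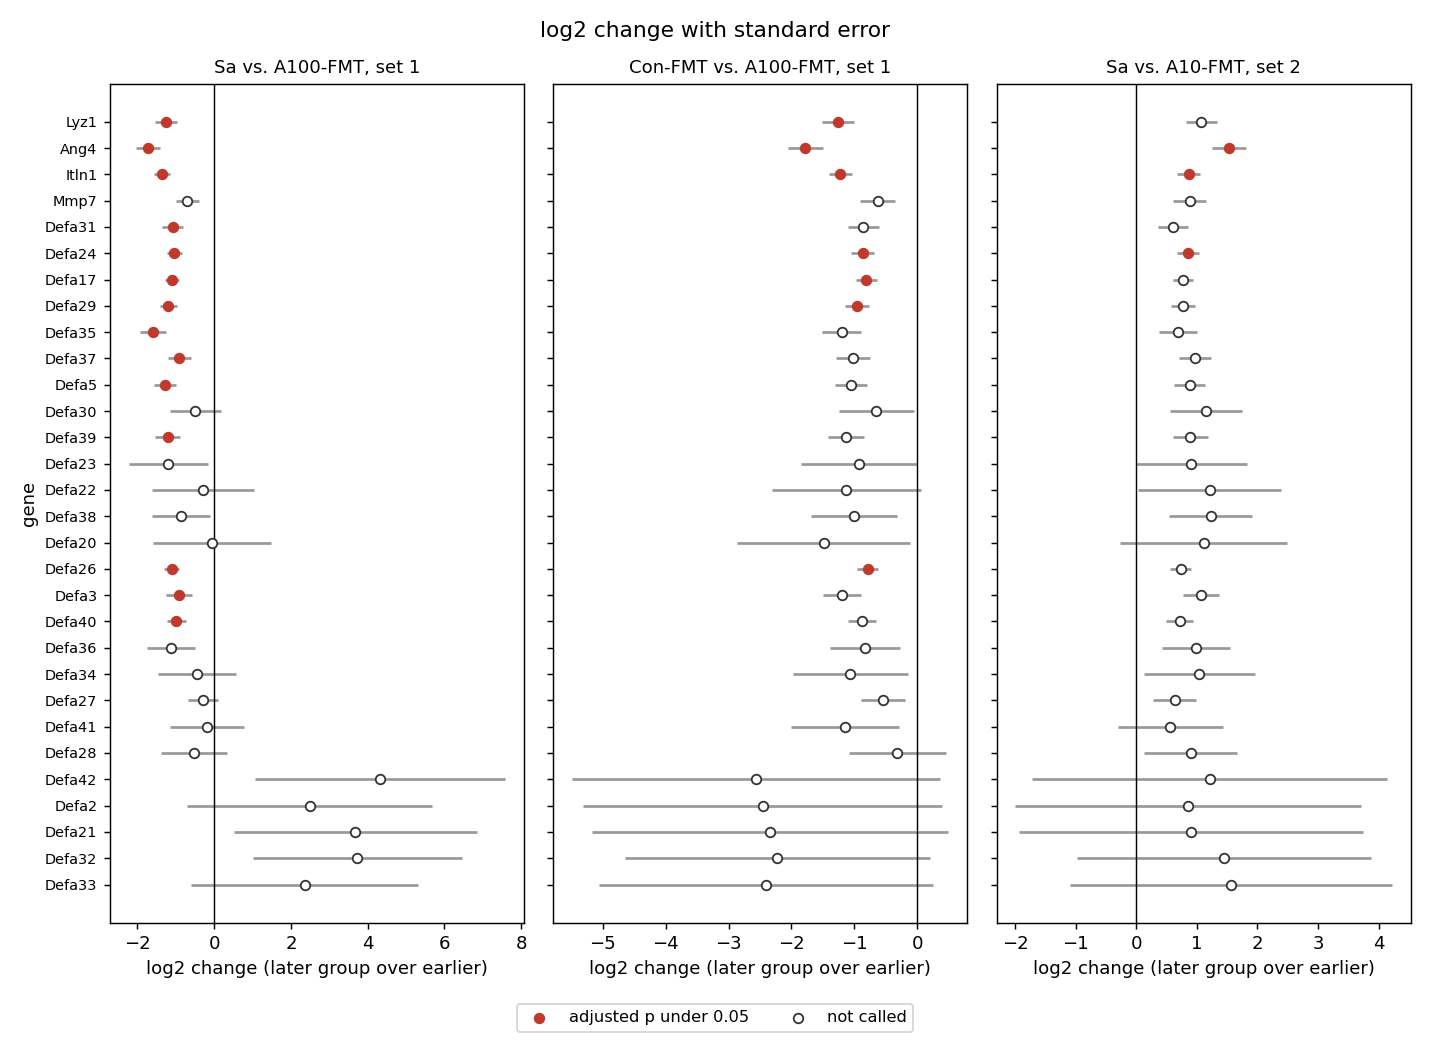
log2 change with its standard error of the 30 tested genes in set 1 for Sa vs. A100-FMT and Con-FMT vs. A100-FMT and in set 2 for Sa vs. A10-FMT, with filled points for an adjusted p under 0.05 (14, 7 and 3 genes). The called genes are lower in both comparisons of set 1 and higher in set 2, and the 5 copies at the bottom have standard errors of 2.43 to 3.27.

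In set 2, Lyz1, Ang4, Itln1 and the family sum had their lowest group mean in Sa. A10-FMT was higher, with 3 of 30 genes called, all higher, where 0.0882% of all tested genes were called higher and 0.335% lower. Ang4 was at 560, 376 and 305 FPKM in the Sa libraries of set 2 and at 1362, 1355 and 834 FPKM in A10-FMT (1.52 ± 0.28, adjusted p = 0.029). Itln1 was at 715, 547 and 455 FPKM in Sa and at 1178, 1117 and 822 FPKM in A10-FMT (0.87 ± 0.19, adjusted p = 0.048). Defa24 was at 3991, 3400 and 2671 FPKM in Sa and at 6601, 6710 and 4865 FPKM in A10-FMT (0.86 ± 0.18, adjusted p = 0.048). The groups did not overlap for these 3. Lyz1 did not overlap either, at 1977, 1857 and 1128 FPKM in Sa and 4001, 4000 and 2422 FPKM in A10-FMT, but was not called (1.07 ± 0.26, adjusted p = 0.073). Mmp7 was at 145, 80.5 and 64.0 FPKM in Sa and at 181, 182 and 143 FPKM in A10-FMT, which overlap (0.88 ± 0.27, adjusted p = 0.15).

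All 30 genes had a log2 change above 0 in this comparison, with a median of 0.90 against 0.03 over all tested genes, and 9 did not overlap with A10-FMT higher, against 19.2% of all tested genes. The family sum ran over 21328, 15580 and 12050 FPKM in Sa and 41226, 30189 and 20671 FPKM in A10-FMT, a log2 change of 0.89. Crypt genes were read beside these. In the same comparison 0 of 15 proliferation genes and 0 of 9 stem cell genes were called, all 15 and all 9 were above 0, and their medians were 0.18 and 0.17. Their summed levels did not overlap, at 621 to 695 FPKM in Sa and 724 to 771 FPKM in A10-FMT for proliferation and at 497 to 604 FPKM and 633 to 712 FPKM for stem cells, and their part in the result was not tested. The calls again moved with single libraries. There were 0 without Sa replicate 2, Sa replicate 3, A10-FMT replicate 1 or A10-FMT replicate 2, and 6 without Sa replicate 1 or A10-FMT replicate 3 (13 to 18 were at an unadjusted p under 0.05 in these 6 fits).

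Con-FMT of set 2 was compared with the same Sa libraries and had 0 of 30 genes called with limma, where 0.0353% of all tested genes were called. At an unadjusted p under 0.05 there were 12, and 11 genes did not overlap with Con-FMT higher, where 6.3% of all tested genes did so. Lyz1 was at 2429, 2367 and 2795 FPKM in Con-FMT (0.65 ± 0.26, adjusted p = 0.74) and Ang4 at 743, 677 and 708 FPKM (0.82 ± 0.28, adjusted p = 0.57). For A100-FMT of set 2, 0 were called against Sa (1 at an unadjusted p under 0.05), where 0.0353% of all tested genes were called. Lyz1 was at 2556, 1702 and 1433 FPKM there (0.20 ± 0.26, adjusted p = 0.79), within the range of Sa apart from its highest library. Against Con-FMT of set 2, A10-FMT had 0 called (1 at an unadjusted p under 0.05), where 0.379% of all tested genes were called, and A100-FMT had 0 (4 at an unadjusted p under 0.05), where 0% of all tested genes were called. The family sum changed from Sa to Con-FMT by 0.53 and from Sa to A100-FMT by 0.30 on the log2 scale. Without Sa replicate 3 these became 0.33 and 0.098, and without Sa replicate 1 0.74 and 0.51.

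The log2 change from Sa to A10-FMT and to A100-FMT differed between the sets in this fit. Sa enters each of these differences, and the levels of Sa and of A100-FMT by set are given below. For A10-FMT, 12 of 30 genes had a higher log2 change in set 2 than in set 1 (12 called, 0 lower), where 17.8% of all tested genes were called higher and 10.6% lower. Ang4 moved from -0.25 in set 1 to 1.52 in set 2, a difference of 1.77 ± 0.42 (adjusted p = 0.0051), and Lyz1 from -0.22 to 1.07, a difference of 1.29 ± 0.39 (adjusted p = 0.019). For A100-FMT, 12 were higher and 0 lower, where 13.3% of all tested genes were called higher and 13.5% lower. Ang4 moved from -1.73 to 0.19, a difference of 1.92 ± 0.42 (adjusted p = 0.0091). For Con-FMT, 0 were called (7 at an unadjusted p under 0.05), where 0.00882% of all tested genes were called, and 3 were called without Sa set 1 replicate 1. The count for A10-FMT was 6 without A10-FMT set 1 replicate 3 or Sa set 2 replicate 3, and that for A100-FMT was 6 without Sa set 1 replicate 3. With array quality weights both counts were 0 (0 and 2 at an unadjusted p under 0.05). With only the groups compared fitted, the count for A100-FMT was 2. Other lists differed between the sets as well. For A10-FMT, 9 of 15 proliferation genes and 3 of 9 stem cell genes were called higher and 0 lower, 8 of 13 proximal genes were called lower and 1 higher, and 5 of 11 distal genes were called lower and 0 higher, with medians of 0.44, 0.41, -1.15 and -0.72. For A100-FMT, 5 of 15 proliferation and 4 of 11 enteroendocrine genes were called higher and 0 lower, 3 of 9 stem cell genes higher and 1 lower, and 3 of 11 distal and 2 of 13 proximal genes lower and 0 higher. Their part in the differences was not tested.

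The levels of Sa itself differed between the sets. Sa was lower in set 2 for 14 of 30 genes and higher for 0, where 13.9% of all tested genes were called lower and 24.2% higher. Lyz1 had group means of 4088 ± 721 FPKM (SD, n = 2) in Sa of set 1 and 1654 ± 459 FPKM (SD, n = 3) in Sa of set 2 (-1.34 ± 0.29, adjusted p = 0.0095). Mmp7 was called here, with means of 171 ± 30.2 FPKM (SD, n = 2) and 96.4 ± 42.7 FPKM (SD, n = 3) (-0.90 ± 0.31, adjusted p = 0.030). Without Sa set 1 replicate 3, 0 were called. No gene of the 30 was called between the sets for Con-FMT (8 at an unadjusted p under 0.05), where 0.00882% of all tested genes were called, for A10-FMT (5 at an unadjusted p under 0.05), where 30.4% were called, or for A100-FMT (0 at an unadjusted p under 0.05), where 0% were called. Lyz1 means of A100-FMT were 1722 ± 398 FPKM in set 1 and 1897 ± 586 FPKM in set 2 (SD, n = 3 each). In A10-FMT 1 gene was called between the sets without set 2 replicate 2 and 4 without set 2 replicate 3. Set and the handling of its libraries cannot be told apart.

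With the sets averaged, none of the 3 transplants had a called gene relative to Sa (0, 3 and 12 at an unadjusted p under 0.05 for Con-FMT, A10-FMT and A100-FMT), where 0.75%, 0.132% and 0.891% of all tested genes were called. Without Sa set 1 replicate 1, 7 genes were called for A100-FMT and 1 for A10-FMT, and without A100-FMT set 2 replicate 1, 1 was called for A100-FMT. From Con-FMT to A100-FMT, 2 of 30 were called, both lower, where 0.097% of all tested genes were called lower and 0.0265% higher. These were Ang4 (-1.21 ± 0.20, adjusted p = 0.017) and Itln1 (-0.71 ± 0.13, adjusted p = 0.042), and all 30 genes were below 0, with a median of -0.70. That count was 0 or 1 without any 1 of 9 of the 12 libraries (each of Con-FMT set 2, Con-FMT set 1 replicates 1 and 2, and replicates 2 and 3 of A100-FMT in either set) and 4 without A100-FMT set 2 replicate 1. From Con-FMT to A10-FMT 0 were called (0 at an unadjusted p under 0.05), where 0% of all tested genes were called.

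**Figure D4:**
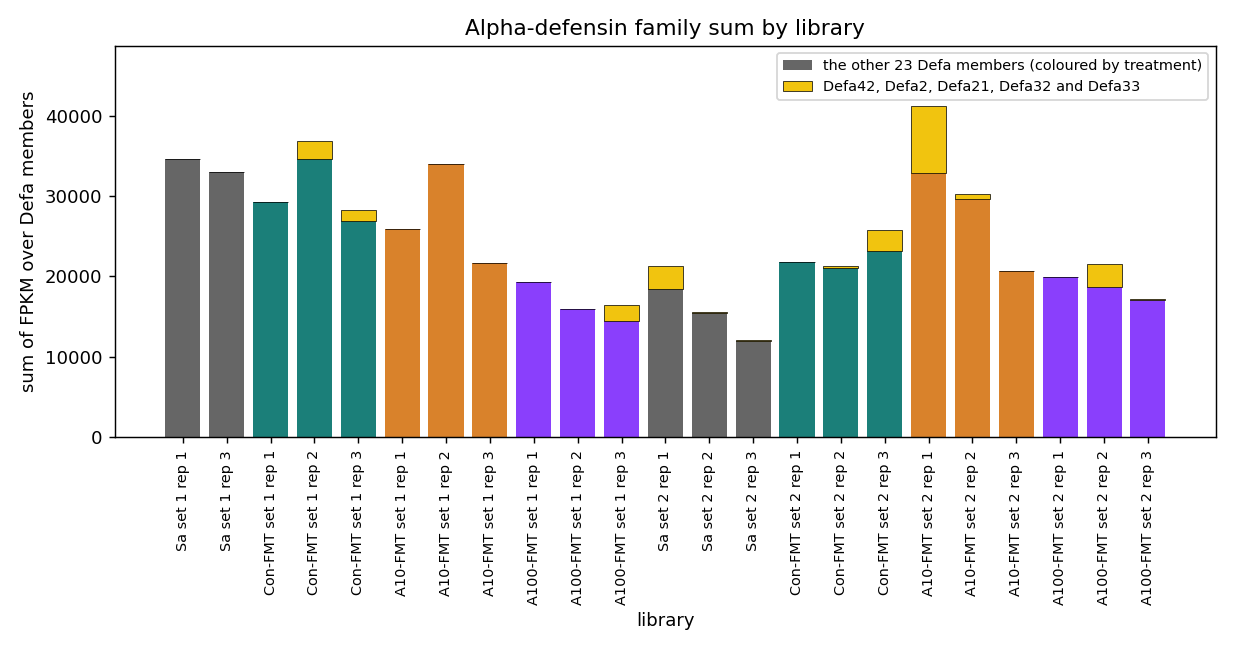
Sum of FPKM over the 28 alpha-defensins in each of the 23 libraries, with the 23 remaining alpha-defensins coloured by treatment and Defa42, Defa2, Defa21, Defa32 and Defa33 stacked on top in yellow. The sum runs from 12050 FPKM in Sa set 2 replicate 3 to 41226 FPKM in A10-FMT set 2 replicate 1, where the 5 copies give 20.4% of it.

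A group of copies varied widely between libraries, also within most of the groups. Defa42, Defa2, Defa21, Defa32 and Defa33 each reached at least 100 FPKM in some library and stayed under 10 FPKM in at least 10 of the 23, a rule set after their values were seen, so the group they form was given no test. Each of the 5 is among the 30 tested genes, and none was called by limma in these comparisons at a pseudocount of 1 FPKM with all 8 groups fitted. Their spread within groups was wide, so the absence of a call does not show that they were unchanged. Of all 19215 entries, 1278 reached 100 FPKM in some library and 7 met the whole rule, of which these copies were 5. Defa42 was listed at 0 in 6 libraries, was above 0 and under 10 FPKM in 6, was between 10 and 100 FPKM in 3, and was at 100 FPKM or more in 8.

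Both high and low libraries occurred within single groups. Defa42 was at 3.88, 773 and 440 FPKM in the Con-FMT libraries of set 1, and at 9.99, 0 and 728 FPKM in A100-FMT of set 1. In set 2 it was at 970, 44.5 and 5.0 FPKM in Sa, 0.68, 68.3 and 881 FPKM in Con-FMT, 2872, 205 and 4.54 FPKM in A10-FMT and 1.08, 1032 and 37.2 FPKM in A100-FMT. It was listed at 0 in both Sa libraries and in all 3 A10-FMT libraries of set 1. Every one of the 6 groups outside these held at least 1 library above 100 FPKM and at least 1 below 10 FPKM.

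The 5 copies rose and fell together. On the log2(FPKM + 1) scale Pearson's r between pairs of them was 0.966 to 0.997 over the 23 libraries, and 0.973 to 0.997 for deviations from the group means. With Lyz1, Mmp7, Ang4 and Itln1 their r was -0.11 to 0.06, and -0.0073 to 0.335 for deviations from the group means, while those 4 genes had r of 0.778 to 0.965 among themselves. These are descriptions over libraries that share groups. In the 15 libraries where Defa42 was at 3 FPKM or more and the copy compared at 1 FPKM or more, Defa21 was at a median of 0.563 of its level, Defa2 at 0.791 and Defa32 at 0.419.

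In A10-FMT set 2 replicate 1, the library with the highest family sum, Defa42, Defa2, Defa21, Defa32 and Defa33 were at 2872, 2265, 1722, 959 and 596 FPKM. In A10-FMT set 2 replicate 3 they were at 4.54, 1.35, 1.11, 7.01 and 0.57 FPKM. Lyz1 was at 4001 and 2422 FPKM in these 2 libraries. The 5 copies gave 0.00224% to 20.4% of the family sum. Leaving them out moved the log2 change of the sum in set 1 from -0.98 to -1.04 for Sa vs. A100-FMT, and from 0.89 to 0.85 in Sa vs. A10-FMT of set 2.

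**Figure D5:**
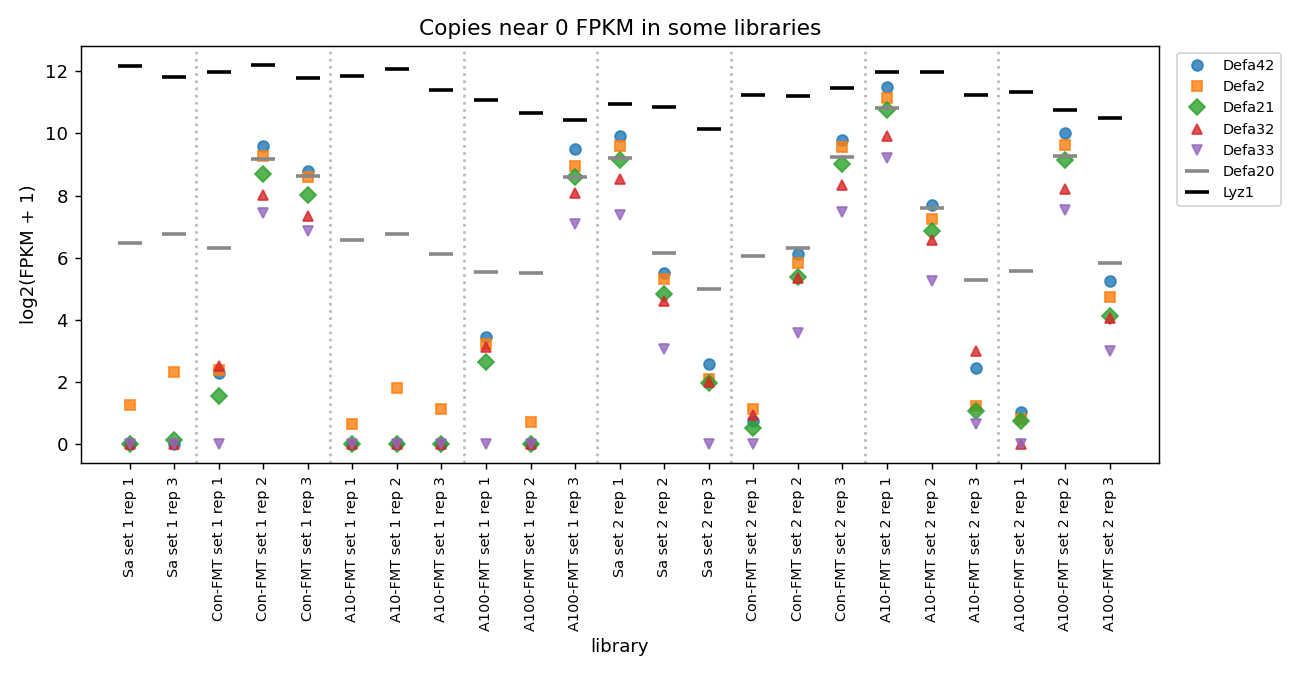
log2(FPKM + 1) of Defa42, Defa2, Defa21, Defa32 and Defa33 (symbols) with Defa20 and Lyz1 (bars) in each of the 23 libraries, with dotted lines between groups. The 5 copies move together between 0 and 2872 FPKM, Defa20 is above 31 FPKM in every library and rises with them, and Lyz1 keeps to 1128 to 4697 FPKM.

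Other copies varied in part with them. Defa20 was at 31.1 to 1790 FPKM (r with Defa42 of 0.830), Defa22 at 60.1 to 2256 FPKM (r of 0.794), Defa34 at 17.5 to 376 FPKM (r of 0.741) and Defa30 at 201 to 2006 FPKM (r of 0.663). Defa23 was at 114 to 1879 FPKM (r of 0.622) and Defa38 at 103 to 1432 FPKM (r of 0.601). The annotated transcripts of Defa42, Defa2, Defa32, Defa33 and Defa20 shared 100% of their 50-base words with other copies, and those of Defa21 and Defa22 72.9% and 74.9%. Those of Defa31 and Defa37, which did not vary in this way, shared 100% as well. The part of shared sequence in this pattern was not tested. By contrast Defa31 and Defa35 had r of -0.49 and -0.48 with Defa42, and in A10-FMT set 2 replicate 1 Defa31 was at 5304 FPKM, below the 10346 and 7789 FPKM of replicates 2 and 3. Defa36 was at 35.7 to 321 FPKM (r of 0.395). Defa27, Defa41 and Defa28, at most 18.8, 14.2 and 6.82 FPKM, had r of 0.659, 0.722 and 0.669.

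Outside the 32 genes, the genes whose level went most like the family sum were Habp2 (r of 0.905), Nupr1 (0.884), Tmed6 (0.875), Ephb3 (0.822) and Pla2g2f (0.803), followed by Gcg (0.792), Chgb (0.720), Cd24a (0.716), Ccl9 (0.707) and Pnliprp2 (0.701). These are the 10 highest of 8077 genes that averaged 5 FPKM or more, with r taken over all 23 libraries. Ephb3 encodes an ephrin receptor that positions Paneth cells in the crypt, and Gcg and Chgb encode the glucagon precursor and a granule protein of hormone-producing cells.

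The rest of the tissue was read in 13 further lists in Sa vs. A100-FMT of set 1, where 22% of all tested genes were called higher and 13.1% lower. Like those of the 30 genes, the calls in these lists rest on Sa of set 1, which has 2 libraries. Of 22 other Paneth cell genes tested, 1 was called higher and 3 lower, with a median log2 change of -0.13. Dmbt1 (0.01), Agr2 (0.03) and Mptx2 (-0.54) were the most abundant and were not called. Bhlha15, a factor of secretory cell maturation, fell (-0.61), as did Ephb3 (-0.37) and Wnt3 (-0.45), a Wnt ligand that Paneth cells supply to stem cells, while Tcf7l2, a Wnt effector, rose (0.54). Bhlha15 and Wnt3 were low, averaging 3.26 and 1.99 FPKM over all libraries. Of 20 other secreted antimicrobials, 2 were called higher and 2 lower. Reg3b (-0.15), Reg3g (-0.05) and Lypd8 (0.09), made by enterocytes and other epithelial cells, were not called, Reg4 (-0.73) and Pglyrp1 (-0.35) fell, and Nos2 (0.72) rose.

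Among the remaining epithelial lists, of 9 stem cell genes 0 were called higher and 3 lower (Ascl2 at -0.51, Cdca7 at -0.30 and Smoc2 at -0.26), of 15 proliferation genes 3 higher and 5 lower, with Mcm5 at -0.48 and Mki67 at 0.67, and of 10 goblet cell genes 1 higher (Muc2 at 0.39) and 2 lower (Ccl9 at -0.48 and Spink4 at -0.36). Of 11 enteroendocrine genes, 0 were called higher and 3 lower, Cck (-0.70), Chgb (-0.41) and Chga (-0.36). From Con-FMT to A100-FMT in set 1, 4 of the 11 were called lower, where 0.212% of all tested genes were called lower. The summed level of the 11 enteroendocrine genes was 280 to 335 FPKM in Sa, 293 to 327 FPKM in Con-FMT and 217 to 271 FPKM in A100-FMT of set 1. These sums did not overlap between A100-FMT and the other two, and their part in the Paneth cell results was not tested. In set 2 they were 217 to 277 FPKM in Sa and 246 to 262 FPKM in A10-FMT, which overlap.

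Markers of both ends of the small intestine were read as well. Of 11 distal genes 2 were called higher (Slc10a2 at 1.08 and Muc3 at 0.61) and 0 lower, and of 13 proximal genes 2 higher (Onecut2 at 0.89 and Fabp1 at 0.63) and 0 lower. Slc10a2 and Onecut2 averaged 7.36 and 4.56 FPKM over all libraries. The summed level of the proximal genes was 3373 to 4622 FPKM in Sa and 4296 to 5248 FPKM in A100-FMT of set 1, and 4038 to 4513 FPKM in Sa and 2569 to 3897 FPKM in A10-FMT of set 2. That of the distal genes was 4353 to 6043 FPKM and 4795 to 5075 FPKM in the first pair and 3885 to 5178 FPKM and 3477 to 3966 FPKM in the second. The most abundant distal gene, Tff3, averaged 2196 FPKM over all libraries and is also in the goblet cell list. The distal sum is therefore not a measure of position along the intestine alone. The part of the sampled stretch of intestine in the results was not tested. Of the remaining lists, 1 smooth muscle gene of 2 tested was lower (Smtn at -0.48), and all 10 macrophage markers averaged under 1 FPKM and were not tested. Calls were 0 of 2 B and plasma cell genes (Xbp1 and Cd79b), 0 of 3 genes of a pancreatic list (Zg16, Reg1 and Cela1) and 0 of 1 tuft cell gene (Trpm5). Zg16 is also in the goblet cell list, and Cela1, Cd79b and Trpm5 averaged 4.09, 1.33 and 1.21 FPKM over all libraries. These lists therefore say little about the amount of those cells.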

How the data were processed

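RNA of small intestine was sequenced by the authors on an Illumina HiSeq 2500. The deposited values are FPKM per gene (2 decimals), on build mm10 per the submitters' processing notes; the methods describe RPKM, and aligner, counter and annotation are not given in the sources used here. No fragment counts or depths were used, so no interval for counting error is given. The table holds 24 value columns for 23 libraries, since 1 library of Sa set 1 has a column by its title and another by its description; the first was used and the second was an alternative. RefSeq gave a symbol for 17725 of the 17842 NCBI Gene numbers.

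Values were analysed as log2(FPKM + 1) where a gene averaged 1 FPKM or more. One mean per group was fitted over all 8 groups with limma 3.58.1 (R 4.3.3; lmFit, contrasts.fit, eBayes with trend), with Benjamini-Hochberg adjustment over 11337 genes. The script was tested on simulated data. Alternatives were a pseudocount of 0.1 FPKM, no filter or a mean of 5 FPKM, quantile or trimmed-mean scaling, a fit of only the groups compared, a replicate block, array quality weights and each library left out; a group left with 1 library is then assumed to vary like the others. Family sums were given no p-value. Members, lists and rules were chosen with earlier results of these data known. Named in full were Lyz1, Mmp7, Ang4, Itln1 and the 6 most abundant alpha-defensins; members called in a comparison were also named, and of each list of other genes the 3 most abundant and up to 3 called genes were considered. Of 40 RefSeq Defa symbols, 12 were not analysed here. Shared words were taken from GENCODE transcripts (build GRCm38), and promoters, aligned with Biopython 1.88, from RefSeq tables.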

Additional observations from a re-analysis of the deposited data

Results flagged for a closer look

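The results here were picked out because the change from Sa differed between set 1 and set 2 by a test of that difference (limma, adjusted p under 0.05). For A10-FMT, the log2 change in set 2 less that in set 1 was 1.77 for Ang4, 1.44 for Defa3, 1.35 for Defa39, 1.29 for Lyz1, 1.27 for Itln1, 1.25 for Defa37, 1.23 for Defa26, 1.22 for Defa5, 1.21 for Defa24, 1.21 for Defa17, 1.08 for Defa29 and 0.999 for Defa40. For A100-FMT it was 1.92 for Ang4, 1.72 for Defa35, 1.65 for Itln1, 1.47 for Defa5, 1.46 for Lyz1, 1.46 for Defa17, 1.41 for Defa26, 1.40 for Defa29, 1.38 for Defa39, 1.37 for Defa24, 1.34 for Defa31 and 0.97 for Defa40. The 2 differences share the Sa libraries, and Sa of set 1 has 2.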

How the results depend on the processing

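Counts are of the 30 tested genes called by limma. The share of all tested genes called under each setting is not given here. These counts therefore show how the calls moved, and are not results about the 30 genes alone. With a pseudocount of 0.1 FPKM, counts in set 1 became 2 for Sa vs. Con-FMT, 1 for Sa vs. A10-FMT, 2 for Con-FMT vs. A10-FMT and 2 for Con-FMT vs. A100-FMT, and 3 for A10-FMT between the sets. With no filter they became 2 for Con-FMT vs. A100-FMT in set 1, 0 for Sa vs. A10-FMT in set 2 and 1 for Con-FMT vs. A100-FMT over both sets. With a mean of at least 5 FPKM they became 1 for Sa vs. A10-FMT in set 1 and 1 for A10-FMT between the sets. Quantile normalization gave 7 for the difference between sets of A10-FMT and moved in set 1 the family sum of Sa vs. A100-FMT to -0.64, and trimmed-mean scaling gave 1 for Sa vs. A10-FMT in set 2. Fitting only the groups compared gave, in set 1, 0 for Sa vs. A100-FMT, 3 for Con-FMT vs. A10-FMT and 1 for Con-FMT vs. A100-FMT. It gave 0 for Sa vs. A10-FMT in set 2, 9 for Con-FMT vs. A100-FMT over both sets, 2 for the difference between sets of A100-FMT, and 0 for Sa and 3 for A10-FMT between the sets. Array quality weights gave 0 for Sa vs. A100-FMT in set 1, 13 for Sa vs. A10-FMT in set 2, 6 for Con-FMT vs. A100-FMT over both sets, 0 for both differences between sets and 0 for Sa between the sets. With the column named by the description (chosen as an alternative beside the title's), counts were 1 for Sa vs. A10-FMT in set 1, 7 in set 2, 9 for Con-FMT vs. A100-FMT over both sets and 2 for A10-FMT between the sets. The cause of these changes was not tested.

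Same-numbered libraries had correlations of deviations from -0.35 to 0.32. Differently numbered libraries were not compared, so whether the numbers pair the libraries is not known. With the replicate block the counts were 4 for Sa vs. A10-FMT in set 1 and 6 in set 2, 1 for Sa vs. A100-FMT and 6 for Con-FMT vs. A100-FMT over both sets, and 6 for Sa and 1 for A10-FMT between the sets. The block turned the sign of Ang4 in Sa vs. Con-FMT of set 1 (-0.068) and of Mmp7 in Sa vs. A10-FMT of set 1 (-0.051).

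Leaving out 1 library at a time gave 0 to 3 calls for Sa vs. A10-FMT, 0 to 14 for Sa vs. A100-FMT and 0 to 7 for Con-FMT vs. A100-FMT in set 1, and 0 to 6 for Sa vs. A10-FMT in set 2. Over both sets it gave 0 to 1 for Sa vs. A10-FMT, 0 to 7 for Sa vs. A100-FMT and 0 to 4 for Con-FMT vs. A100-FMT. The differences between sets ran from 0 to 3 for Con-FMT, 6 to 14 for A10-FMT and 6 to 13 for A100-FMT, and the counts between sets from 0 to 15 for Sa and 0 to 4 for A10-FMT.

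None of the log2 changes that turned sign had been called. Under quantile normalization these were, for Sa vs. Con-FMT of set 1, Lyz1 (0.20), Mmp7 (0.042), Itln1 (0.13) and Defa29 (0.060), for Sa vs. A10-FMT of set 1 Lyz1 (0.029), and for Defa31 Sa vs. A100-FMT of set 2 (-0.021), Sa vs. Con-FMT over both sets (-0.036) and Sa vs. A10-FMT over both sets (-0.20). Array quality weights turned Lyz1 in Sa vs. Con-FMT of set 1 (0.0073) and Defa35 for Sa vs. A100-FMT, set 2 (-0.031), and the description's column turned Ang4 in Sa vs. Con-FMT of set 1 (-0.10). With 1 library left out, Sa vs. Con-FMT of set 1 ran from -0.18 to 0.18 for Lyz1, -0.25 to 0.18 for Mmp7, -0.11 to 0.22 for Ang4 and -0.0046 to 0.19 for Defa37. Sa vs. A10-FMT of set 1 ran from -0.094 to 0.27 for Mmp7 and -0.45 to 0.030 for Ang4. Sa vs. A100-FMT of set 2 ran from -0.43 to 0.17 for Mmp7, -0.058 to 0.38 for Lyz1, -0.0059 to 0.43 for Ang4, -0.096 to 0.43 for Defa37, -0.019 to 0.33 for Defa29 and -0.055 to 0.32 for Defa35. Without depth, low values cannot be told from missing ones.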
